A study of Mus musculus with 10 samples.

Results

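The 10 genes described here mark the endothelium and its precursor, the haemangioblast. They are the receptor genes *Kdr*, *Flt1*, *Tek* and *Tie1*, the surface and junction genes *Cdh5*, *Pecam1* and *Cd34*, and the SoxF transcription factor genes *Sox7*, *Sox17* and *Sox18*. They were chosen by name out of 22359 protein-coding genes in GENCODE M1 (mm9). The rule itself uses no measured value, but the choice was made with earlier results of these data known. A peak was assigned to a gene when it came within 2.5 kb of any transcription start site (TSS) of a protein-coding transcript or overlapped the gene body. By this rule 41 of the 70826 peaks in 8 lists belonged to these genes, 20 in WT and 21 in Delta, and 36 of them lay at a TSS. At least 1 peak was found at 8 genes, and none at *Pecam1* and *Tie1* in any list. No peak of the 41 lay within 2.5 kb of the TSS of another protein-coding gene or overlapped one.

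Cells were sorted for mCherry from mouse embryoid bodies (EBs, aggregates of differentiating embryonic stem cells) at day 4. Both lines carried an mCherry reporter at *Scl*, which encodes the transcription factor SCL (TAL1). In the WT line (*Scl:mCherry*) SCL was functional. In the Delta line (*Scl* Δ/Δ:mCherry, genotype label Scl d/d) its basic helix-loop-helix domain was deleted on both alleles. By the study's methods the lines came from J1 embryonic stem cells and were expanded as clones from single sorted cells, the WT line held the reporter on a single allele, and the Delta line was engineered from it. Each genotype is thus a single clonal line. *Drosophila* S2 cells were added to every sample before ChIP (ChIP-Rx), and antibodies against H3K4me3, H3K27ac, H3K27me3 and H2AK119ub were used. There was 1 library per mark and genotype. Each difference below is therefore a difference between 2 libraries with no replicate check, and no test was possible. Because the cells were analysed as a population, a mark in fewer cells and a lower level of a mark per cell cannot be told apart.

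The haemangioblast is a mesodermal cell that gives rise to both blood and endothelium, and the VEGF receptor FLK1, encoded by *Kdr*, is its best known surface marker. VEGF signalling through this receptor, followed by angiopoietin signalling through TIE2, drives the formation and stabilisation of vessels, while SoxF factors act in the nuclei of endothelial cells. H3K4me3 marks promoters that are active or poised, H3K27ac marks active promoters and enhancers, and H3K27me3 and H2AK119ub are deposited by Polycomb complexes at silenced or poised genes. Promoters that carry H3K4me3 together with H3K27me3 are known as bivalent.

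On mm9, *Kdr* (ENSMUSG00000062960) spans 76328852 to 76374483 on chromosome 5, minus strand, and *Flt1* (ENSMUSG00000029648) lies on the minus strand of the same chromosome from 148373180 to 148537587. *Tek* (ENSMUSG00000006386) and *Tie1* (ENSMUSG00000033191) share chromosome 4, from 94405980 to 94541667 on the plus strand and from 118143796 to 118162666 on the minus strand. *Cdh5* (ENSMUSG00000031871) spans 106625525 to 106668402 on chromosome 8, plus strand, and *Pecam1* (ENSMUSG00000020717) spans 106515531 to 106611942 on chromosome 11, minus strand. *Cd34* (ENSMUSG00000016494) and *Sox17* (ENSMUSG00000025902) are on chromosome 1, from 196765015 to 196787486 on the plus strand and from 4481009 to 4486494 on the minus strand. *Sox7* (ENSMUSG00000063060) spans 64562511 to 64569569 on chromosome 14, plus strand, and *Sox18* (ENSMUSG00000046470) spans 181404541 to 181406345 on chromosome 2, minus strand.

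Sequences of selected promoters and H3K27ac peaks are given first. The 250 bp before the main TSS are shown for *Tek* (chr4:94405730-94405979, plus strand) and *Sox7* (chr14:64562261-64562510, plus strand), because *Tek* had H3K4me3 in WT alone and *Sox7* kept it in both genotypes beside H3K27me3. All positions are on mm9, and the letters were read from that genome. Capitals mark the motifs searched on both strands, which were the E-box CAGATG, the letters AGATAA known to be recognised by GATA factors, the letters CCGGAAG recognised by ETS factors, and AACAAT, recognised by SOX factors.
Tek promoter: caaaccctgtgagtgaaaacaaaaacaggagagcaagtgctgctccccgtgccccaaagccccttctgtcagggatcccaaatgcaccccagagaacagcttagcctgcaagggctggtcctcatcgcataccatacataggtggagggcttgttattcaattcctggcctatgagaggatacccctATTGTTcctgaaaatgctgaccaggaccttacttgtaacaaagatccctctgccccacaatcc
Sox7 promoter: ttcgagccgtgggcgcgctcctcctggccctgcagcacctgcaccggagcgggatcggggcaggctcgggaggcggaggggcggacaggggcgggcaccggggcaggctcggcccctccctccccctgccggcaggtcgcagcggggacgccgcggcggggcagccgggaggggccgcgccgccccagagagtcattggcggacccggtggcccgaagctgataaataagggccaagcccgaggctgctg

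The middle 300 bp of 2 H3K27ac peaks listed in WT without a Delta counterpart are shown with the same capitals. They lie in an intron of *Kdr* (chr5:76358315-76358614, minus strand) and upstream of *Cdh5* (chr8:106620358-106620657, plus strand). The *Cdh5* peak was shorter than the window, which therefore reaches past both of its ends.
Kdr H3K27ac: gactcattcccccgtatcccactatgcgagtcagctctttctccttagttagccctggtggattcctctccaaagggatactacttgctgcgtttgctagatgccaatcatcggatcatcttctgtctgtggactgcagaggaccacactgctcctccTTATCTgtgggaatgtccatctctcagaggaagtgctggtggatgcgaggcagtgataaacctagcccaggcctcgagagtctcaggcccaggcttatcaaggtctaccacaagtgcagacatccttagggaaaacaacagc
Cdh5 H3K27ac: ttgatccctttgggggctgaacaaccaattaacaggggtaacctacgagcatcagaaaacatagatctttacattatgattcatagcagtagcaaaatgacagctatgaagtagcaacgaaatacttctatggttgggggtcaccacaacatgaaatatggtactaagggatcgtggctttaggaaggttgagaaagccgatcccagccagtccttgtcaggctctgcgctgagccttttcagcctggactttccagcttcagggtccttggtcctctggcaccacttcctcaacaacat

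The 9 promoters described here differed widely in CpG content, counted from 250 bp before to 50 bp after the TSS. The ratio of observed to expected CpG was 0.785 for *Sox7*, 0.780 for *Flt1* and 0.660 for *Kdr*, above the median of 0.542 over 22354 promoters. It was 0.496 for *Sox18*, 0.422 for *Sox17*, 0.413 for *Tie1* and 0.374 for *Cd34*. The lowest ratios were 0.149 for *Tek* and 0.119 for *Pecam1*. Of all promoters with a CpG ratio within 0.05 of that of *Tek*, 13.3% had an H3K4me3 peak in WT, and the share was 10.5% for ratios like that of *Pecam1*. For ratios like that of *Sox7* it was 95.7%. In these windows the E-box was found in 4 genes (*Kdr*, *Pecam1*, *Tie1* and *Sox18*) against 14.9% of all promoters, and the SOX motif in 2 (*Tek* and *Tie1*) against 9.96%. The GATA motif was found in 1, *Tek*, against 10.3%, where it reaches past the TSS and so past the letters shown. The ETS motif was found in 0 of the 9 against 10.9%. In the middle of the H3K27ac peaks the *Kdr* window held 1 GATA motif and the *Cdh5* window none of the 4. Of 3483 WT H3K27ac peaks at least 300 bp long, 9.07% held an E-box in the middle window, 5.80% a GATA, 12.5% an ETS and 4.85% a SOX motif. Each motif was searched as a fixed string, so other forms of these sites were not counted, and a window without a match may hold them. A match describes letters and does not show binding.

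The marks were first surveyed at the TSSs. In WT, H3K4me3 was listed at 8 of the 10 genes (60.7% of all genes), H3K27me3 at 6 (34.8%), H2AK119ub at 2 (9.21%) and H3K27ac at 0 (19.9%). In Delta the counts were 6 for H3K4me3 (60.3%), 6 for H3K27me3 (32.7%), 4 for H2AK119ub (5%) and 0 for H3K27ac (22.8%). The genes without H3K4me3 in WT, *Pecam1* and *Tie1*, were also without the other 3 marks. They encode the platelet endothelial adhesion molecule and an orphan receptor that modulates TIE2.

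**Figure D1:**
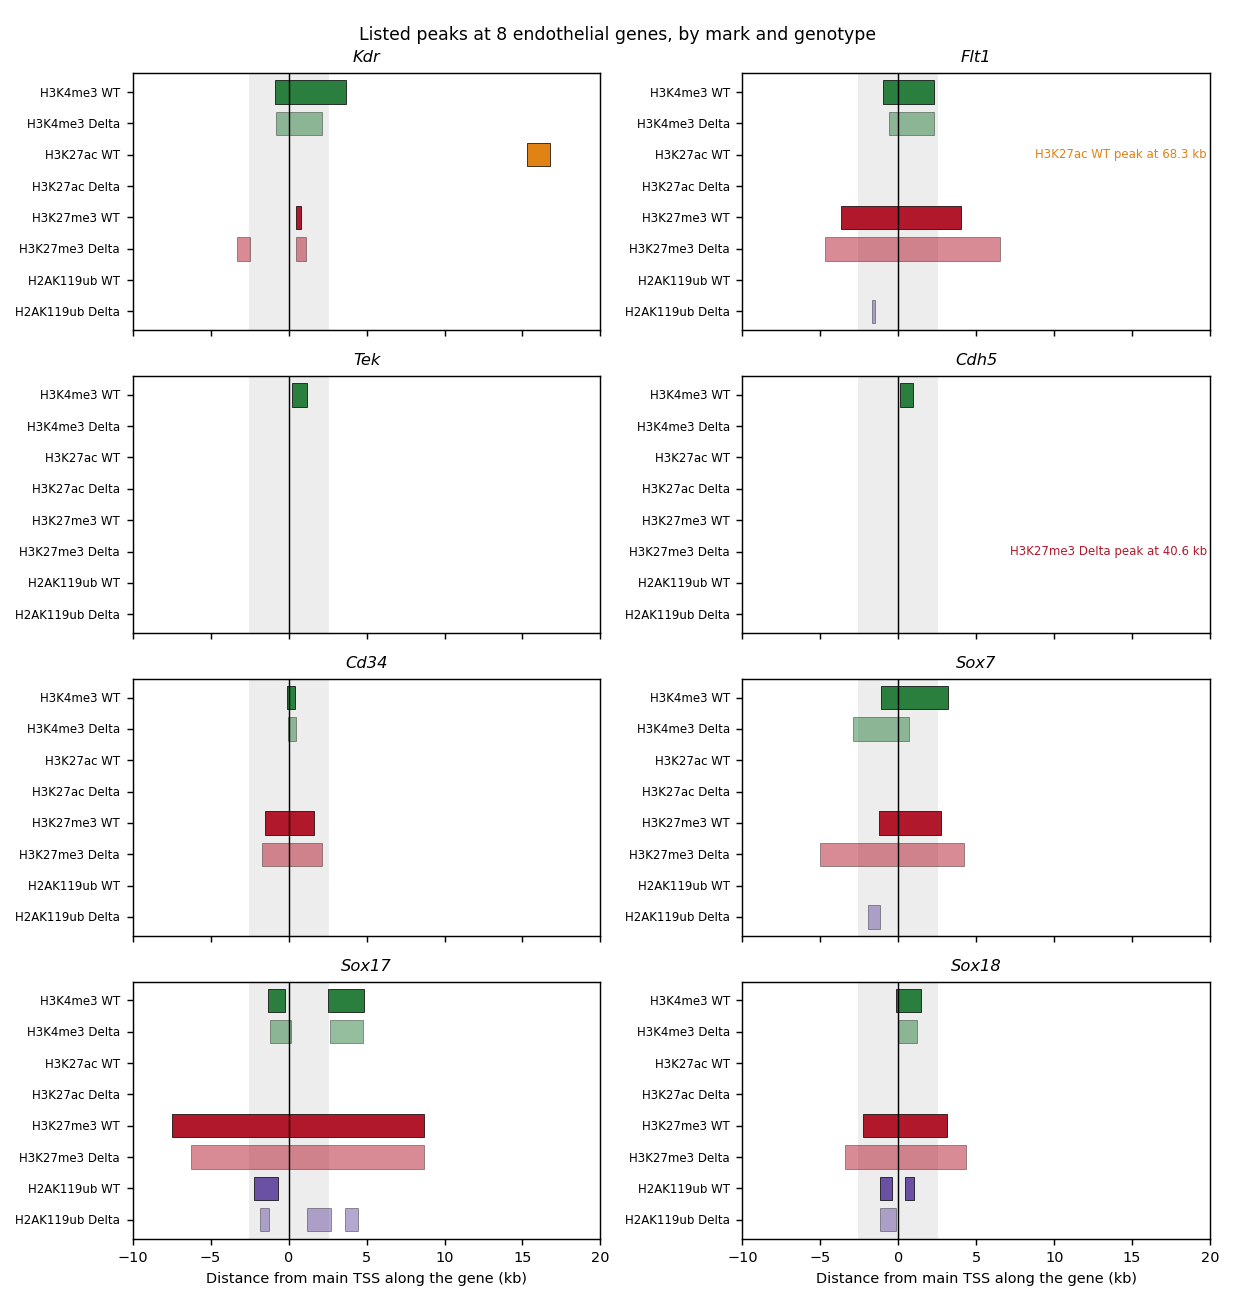
Peaks listed at 8 endothelial genes, with distance from the main TSS along the gene in kb on the x axis and 1 row per mark and genotype. Bars span the listed peaks (full colour, WT and pale, Delta), the grey band is 2.5 kb either side of the main TSS, and the 2 peaks beyond 20 kb are given as text. *Tek* and *Cdh5* have H3K4me3 in WT alone, and H3K27me3 extends further in Delta at *Flt1*, *Sox7* and *Sox18*.

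Among the receptors, *Kdr* carried the longest H3K4me3 peak of the 10 genes in WT. It measured 4547 bp in WT against 2957 bp in Delta and spanned the TSS in both. Its fold enrichment, the authors' ratio of ChIP signal to background at a peak, was 6.96 in WT and 6.52 in Delta. These values stood at the 56.8th and 59.4th percentile of their own lists, so *Kdr* was of middling strength in both. The WT peak reached 3673 bp into the gene and the Delta peak 2166 bp, while their upstream ends differed by less, at 873 bp and 790 bp before the TSS.

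*Flt1* encodes VEGFR1, which binds VEGF tightly and limits signalling through FLK1. Its H3K4me3 peak was 3320 bp in WT against 2906 bp in Delta, with fold enrichments of 7.73 and 6.68, the highest of the 10 genes in each genotype. The downstream ends of the 2 peaks lay 2307 bp and 2309 bp after the TSS, and the difference in length came from the upstream side.

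*Tek* encodes TIE2, the receptor for angiopoietins. A single peak was found at this gene in any list, an H3K4me3 peak in WT on chromosome 4 from 94406187 to 94407163. It was 977 bp long and began 207 bp after the main TSS, with its midpoint in intron 1. It covered another annotated start among the 3 of this gene, which is not the start whose promoter is shown above. Its fold enrichment was 3.42, at the 7.94th percentile of its list. The nearest H3K4me3 peak of the Delta list was 124220 bp away. To read such a missing call, peaks of the same list were taken whose −log10 q was within 0.5 and whose length was within a factor of 2. Of 487 like peaks, 62.0% had a counterpart in Delta, meaning at least 1 bp of overlap (95% Wilson interval 57.6 to 66.2, for counting error only, and neighbouring peaks are not independent). Loss of the call between the lists was thus common for peaks as weak as that at *Tek*.

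*Cdh5* encodes VE-cadherin, the adhesion molecule of endothelial junctions. Its H3K4me3 peak was also listed in WT alone, on chromosome 8 from 106625603 to 106626486. It was 884 bp long, began 78 bp after the TSS and had a fold enrichment of 3.92, at the 16.1st percentile, with a −log10 q of 4.33. The nearest Delta peak was 67749 bp away. Of 571 like peaks, 94.0% had a Delta counterpart (91.8 to 95.7). A missing counterpart was therefore less usual for a peak of this strength than for one like that at *Tek*. Across all genes 1.06% had H3K4me3 at the TSS in WT alone and 0.684% in Delta alone, against 2 and 0 of the 10.

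*Cd34* encodes a sialomucin of haematopoietic progenitors and endothelium. Its H3K4me3 peak was the shortest at a TSS among the 10 genes, 558 bp in WT against 495 bp in Delta, with fold enrichments of 3.53 and 3.28 at the 9.77th and 2.54th percentile. It was thus weak in both genotypes.

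The SoxF genes all kept H3K4me3 in both genotypes. At *Sox7*, which encodes a factor of the early haemangioblast, the peak was 4261 bp in WT against 3599 bp in Delta. Its fold enrichment was 5.94 in WT and 4.22 in Delta, a move from the 44.1st to the 18.9th percentile. The peak also lay differently, from 1093 bp before to 3167 bp after the TSS in WT and from 2907 bp before to 691 bp after it in Delta. At *Sox18*, known for lymphatic and vascular development, the peak was 1606 bp in WT against 1202 bp in Delta, with fold enrichments of 4.20 and 4.02.

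*Sox17*, a factor of definitive endoderm as well as of arterial and haemogenic endothelium, had 2 H3K4me3 peaks in each genotype. The upstream peak was 1081 bp in WT against 1380 bp in Delta, with fold enrichments of 4.06 and 4.07. The peak over the gene body was 2351 bp in WT against 2112 bp in Delta, with fold enrichments of 5.81 and 5.07. The gene-body peak began 2460 bp from the nearest TSS in WT and 2593 bp in Delta, so it fell inside the 2.5 kb limit in WT alone. The summed length at the TSS was 3432 bp in WT against 1380 bp in Delta for that reason, while the sum with the gene body was 3432 bp in WT against 3492 bp in Delta.

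Over the 6 genes with H3K4me3 in both genotypes, the summed length at the TSS was shorter in Delta at 6, and the highest fold enrichment was lower at 6. At *Sox17* the 2.5 kb limit set the WT gene-body peak against the Delta upstream peak, and with gene-body peaks or length inside the limit alone 5 genes were shorter and 1 longer. The ratio of Delta to WT length ran from 0.402 (*Sox17*) to 0.887 (*Cd34*), with a median of 0.797. Among all 13324 genes with H3K4me3 in both, 67.1% were shorter in Delta, 69.7% had a lower fold enrichment and the median ratio was 0.928. The direction at these genes was hence that of most genes. The percentile of fold enrichment was higher in Delta at 1 of the 6, *Kdr*, against 45.5% of all genes.

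H3K27ac was found at none of the 10 TSSs in either genotype. Away from the TSS it was listed at 2 genes, both in WT alone and both VEGF receptors. At *Kdr* the peak lay in intron 10, 15286 bp after the TSS, on chromosome 5 from 76357733 to 76359197. It was 1465 bp long with a fold enrichment of 5.38, at the 90.1st percentile. The nearest Delta peak was 210192 bp away, and of 166 like peaks 94.6% had a Delta counterpart (90.0 to 97.1). Like peaks were matched on −log10 q and length and not on location, so peaks at promoters could be among them. Their share therefore does not give how often an intronic peak kept a counterpart.

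At *Flt1* the H3K27ac peak lay in intron 10 as well, 68276 bp after the TSS. It was 462 bp long with a fold enrichment of 5.73, at the 94.6th percentile. No Delta peak lay within 202489 bp, and of 183 like peaks 91.8% had a counterpart (86.9 to 94.97). Both intronic peaks thus stood near the top of the WT list by fold enrichment. Over all genes, 0.456% had H3K27ac in the gene body without one at the TSS in WT and nothing at either in Delta. The share was 1.39% of the 5234 genes at least as long as *Kdr*. These shares are low in part because few genes, 209 (0.935%), had H3K27ac in the gene body and not at the TSS in WT. Of those 209 genes, 102 had nothing at either in Delta, so absence from the Delta list was common for such genes.

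H3K27ac peaks near but outside the genes were then located. The nearest WT peak to *Cdh5* was 4902 bp upstream, 230 bp long, with a fold enrichment of 3.77 at the 28.3rd percentile. The nearest Delta peak to *Cdh5* was 239152 bp away. Of 451 like peaks 62.3% had a Delta counterpart (57.7 to 66.7). For *Cd34* the nearest WT peak was 37618 bp downstream and 189 bp long, and the nearest Delta peak was 192345 bp away. For *Sox7* the distances were 22169 bp in WT against 82895 bp in Delta, and the WT peak was 586 bp long. Like peaks had a Delta counterpart in 65.2% of cases for *Cd34* (58.9 to 71.1) and in 51.2% for *Sox7* (47.3 to 55.1).

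The other 5 genes had their nearest H3K27ac peak at similar distances in both genotypes. It was at 136221 bp in WT against 136200 bp in Delta for *Tek*, inside another gene, *Plaa*. For *Pecam1* it was at 72386 bp and 72141 bp, for *Tie1* at 52787 bp and 51615 bp, for *Sox17* at 361513 bp and 361467 bp, and for *Sox18* at 78560 bp and 70049 bp. The WT and Delta peaks overlapped for *Tek*, *Pecam1* and *Sox17*. For *Tie1* and *Sox18* they did not overlap, so a similar distance there was not a shared peak. A peak within 50 kb in WT with none in Delta was found for 4 of the 10 genes (*Kdr*, *Cdh5*, *Cd34* and *Sox7*), against 4.52% of all genes, and the reverse for 0, against 8.46%. Within 100 kb the counts were 4 (*Kdr*, *Cdh5*, *Cd34* and *Flt1*; 4.31%) and 0 (8.14%). These distance limits were chosen after the values were seen.

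**Figure D2:**
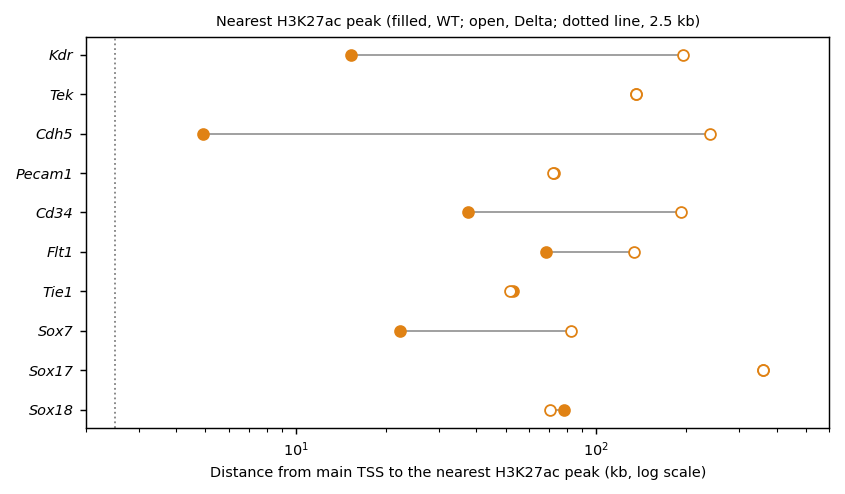
Distance in kb (log scale) from the main TSS of each of the 10 genes to the nearest H3K27ac peak, in WT (filled) and Delta (open), with a dotted line at 2.5 kb. The WT peak is nearer at *Kdr*, *Cdh5*, *Cd34*, *Flt1* and *Sox7*, and the points nearly coincide at *Tek*, *Pecam1*, *Tie1* and *Sox17*.

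Of the Polycomb marks, H3K27me3 was listed at the same 6 TSSs in both genotypes, *Kdr*, *Cd34*, *Flt1*, *Sox7*, *Sox17* and *Sox18* (27.8% of all genes were called in both). At *Sox7* it spanned 4027 bp in WT against 9207 bp in Delta, a ratio of 2.29, and its fold enrichment was 3.25 in WT and 5.09 in Delta. That moved it from the 24.6th to the 73.5th percentile. At *Flt1* the length was 7699 bp in WT against 11211 bp in Delta, with fold enrichments of 5.49 and 6.18. Both genes thus had a longer listed domain with a higher fold enrichment in the Delta library. Spike-in scaling is not described for these peak calls, so neither length nor fold enrichment compares the absolute level of a mark between genotypes.

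At *Sox18* the H3K27me3 peak was 5335 bp in WT against 7778 bp in Delta, with fold enrichments of 7.16 and 8.24, the highest among the 10 genes. At *Cd34* it was 3150 bp and 3849 bp, with fold enrichments of 4.97 and 5.43. *Sox17* was the exception in length, where the domain was 16184 bp in WT against 14996 bp in Delta. It was the longest domain of the set in both, and its fold enrichment was 6.54 in WT and 7.93 in Delta.

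*Kdr* had the weakest H3K27me3. Its WT peak was 306 bp long with a fold enrichment of 2.61, at the 0.132nd percentile of the list, and lay 465 bp after the TSS. In Delta a 619 bp peak overlapped it, with a fold enrichment of 3.07. A further Delta peak of 875 bp lay 2466 bp upstream, just inside the 2.5 kb limit, from 76376949 to 76377823 on chromosome 5. It had no WT counterpart, and of 1511 like peaks 41.6% had one (39.2 to 44.1). The summed ratio of 4.88 at *Kdr* rests on these small peaks.

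The ratio of Delta to WT H3K27me3 length was above 1 at 5 of the 6 genes and at least 1.2 at 5, against 51.2% and 27% of the 6216 genes called in both. The median ratio was 1.46, against 1.01 over all genes. The highest fold enrichment was higher in Delta at 6 of 6, against 61.6%, and its percentile was higher at 6 of 6, against 45.4%. When length was counted inside the 2.5 kb limit alone, the median ratio was 1.14, with 4 of 6 genes longer and 0 shorter. Outside the TSSs, 1 gene had H3K27me3 in the gene body and not at the TSS, in Delta (1.88% of all genes). This was *Cdh5*, with a 480 bp peak over exon 12, for which 36.1% of 1528 like peaks had a WT counterpart (33.8 to 38.6).

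**Figure D3:**
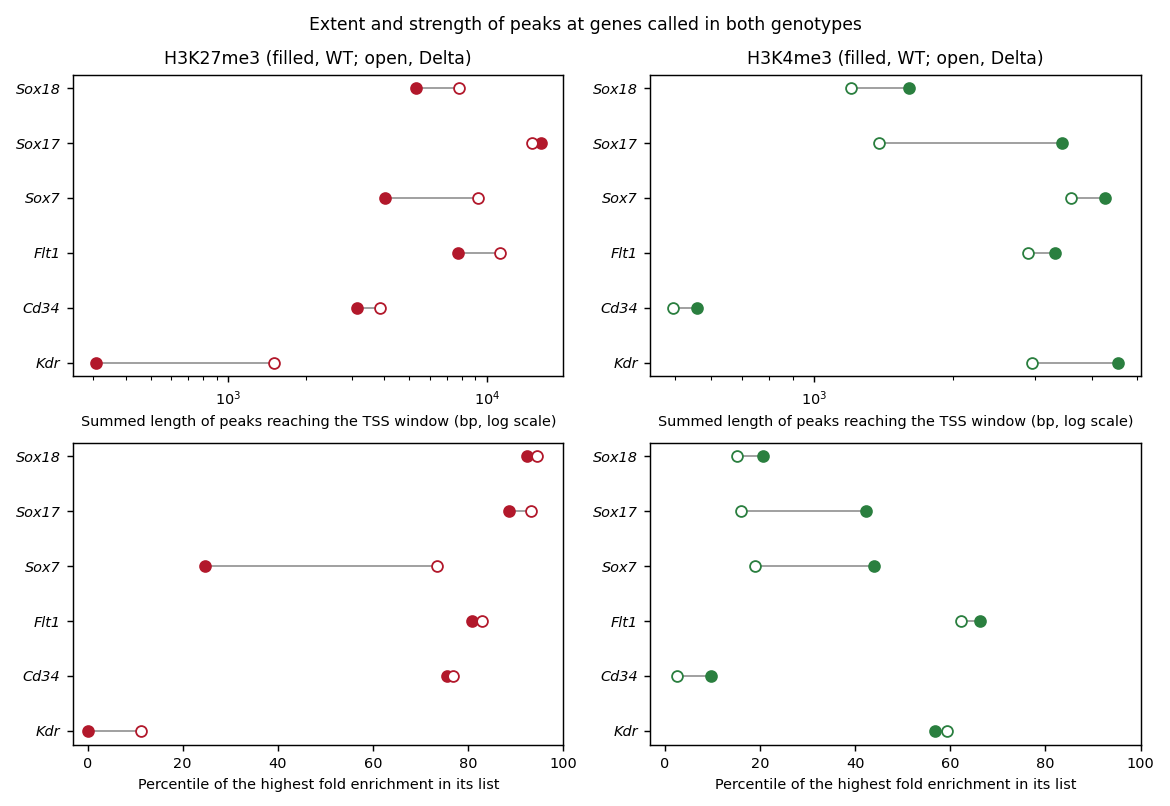
Summed peak length at the TSS in bp (upper panels, log scale) and percentile of the highest fold enrichment within its own list (lower panels) for the 6 genes called in both genotypes, for H3K27me3 (left) and H3K4me3 (right), with WT filled and Delta open. H3K27me3 is longer in Delta at 5 of 6 genes and H3K4me3 shorter at 6 of 6, where the *Sox17* H3K4me3 gap depends on the 2.5 kb limit.

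H2AK119ub was listed at the TSS of 2 genes, *Sox17* and *Sox18*, in both genotypes (4.14% of all genes) and at *Flt1* and *Sox7* in Delta alone. Among all genes 0.863% were called in Delta alone and 5.08% in WT alone, against 2 and 0 of the 10. With a TSS distance of 1000 bp the direction turned, with 0 genes in Delta alone and 1, *Sox17*, in WT alone. The *Flt1* peak was 210 bp long and lay 1467 bp upstream of the TSS, from 148539054 to 148539263 on chromosome 5, with a fold enrichment of 4.18. Of 388 like peaks 47.2% had a WT counterpart (42.3 to 52.1). The *Sox7* peak was 762 bp long and lay 1192 bp upstream, from 64560558 to 64561319 on chromosome 14, with a fold enrichment of 3.97. Of 1100 like peaks 62.1% had a counterpart (59.2 to 64.9). These Delta calls had −log10 q of 2.11 and 1.72 and stood at the 73.0th and 46.8th percentile of fold enrichment in their list. Both lay inside the Delta H3K27me3 domain of the same gene.

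At *Sox17* the summed H2AK119ub length at the TSS was 1483 bp in WT, as 1 peak, and 2104 bp in Delta, as 2 peaks. One of these Delta peaks, 1533 bp long over intron 2 from 4483794 to 4485326 on chromosome 1, had no counterpart in WT, where 86.5% of 579 like peaks had one (83.5 to 89.1). At *Sox18* the sum was 1306 bp in WT, as 2 peaks, and 1026 bp in Delta, as 1. The WT peak without a counterpart was 547 bp long, from 181405346 to 181405892 on chromosome 2, and 17.9% of its 2520 like peaks had one (16.4 to 19.4). Of the H2AK119ub peaks at these genes, 0 reached a −log10 q of 3 in either genotype, and of all H2AK119ub peaks 2.01% did so in the WT list and 2.05% in the Delta list. The Delta list was also shorter as a whole, with 2388 peaks against 4922 in WT.

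The combination of marks at each promoter was compared next. H3K4me3 and H3K27me3 were both listed at 6 of the 10 TSSs in WT (32.4% of all genes) and at the same 6 in Delta (30.1%). When a −log10 q of 3 was required, 4 were left in each genotype, and the genes no longer matched. They were *Cd34*, *Flt1*, *Sox17* and *Sox18* in WT and *Flt1*, *Sox7*, *Sox17* and *Sox18* in Delta. At *Cd34*, *Flt1*, *Sox17* and *Sox18*, 100% of the H3K4me3 length was overlapped by H3K27me3 in both genotypes. The overlap was 90.4% in WT and 100% in Delta at *Sox7*, and 6.73% and 20.9% at *Kdr*. *Kdr* thus had H3K4me3 largely free of H3K27me3, and *Tek* and *Cdh5* had H3K4me3 in WT with no H3K27me3 at the TSS.

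A wider list of 39 vascular genes was examined in the same way, chosen with earlier results of these data known. H3K4me3 was listed at 33 in WT and at the same 33 in Delta (59.6% of all genes had it in both). H3K27me3 was listed at 25 in WT and 27 in Delta (34.8% and 32.7% of all genes). H3K27ac was listed at 9 genes in WT and at 6 other genes in Delta, and at 0 in both. Of all genes, 16.4% had it in both genotypes, 3.43% had it in the WT list alone and 6.37% in the Delta list alone. The 9 in WT were the growth factor gene *Vegfa*, the lipid receptor gene *S1pr1*, the secreted factor gene *Egfl7* and the transcription factor genes *Erg*, *Fli1*, *Gata2*, *Hhex*, *Lmo2* and *Lyl1*, which are 6 of the 12 factors on the list. The 6 in Delta were *Vegfc*, *Angpt2*, *Nrp1*, *Eng*, *Notch1* and *Prox1*. The WT peaks had a median percentile of fold enrichment of 48.5 and the Delta peaks one of 19.3. When a −log10 q of 3 was required, 6 of the WT calls and 0 of the Delta calls were left, while 4.24% of all genes were then called in WT alone and 4.12% in Delta alone. Under the other alternatives 7 to 9 genes were called in WT and 4 to 7 in Delta. H2AK119ub was listed at 11 genes in WT and 9 in Delta (9.21% and 5% of all genes). It was at *Vegfb*, *Pgf* and *Notch1* in WT alone and at *Acvrl1* in Delta alone (5.08% and 0.863% of all genes).

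**Figure D4:**
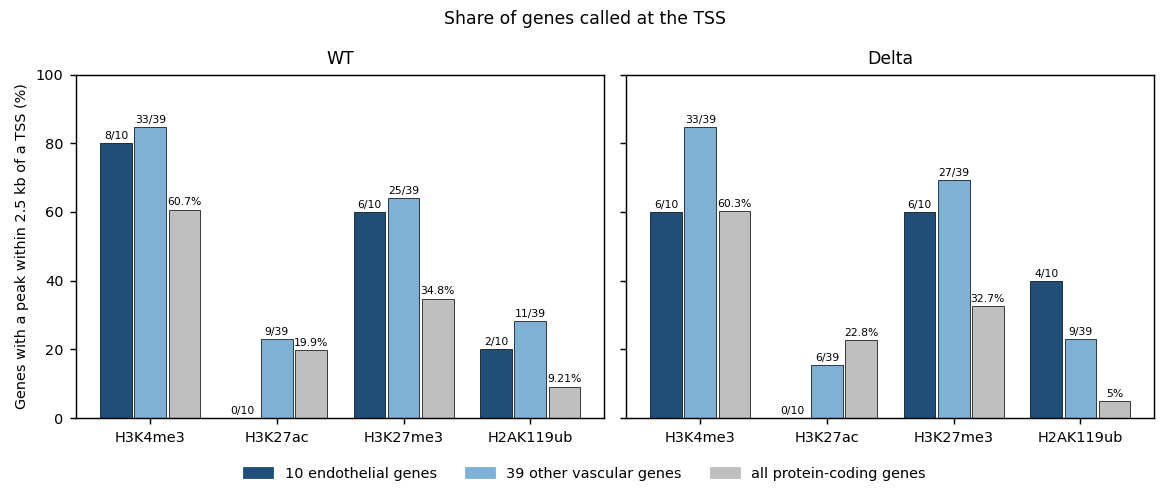
Percent of genes with a peak within 2.5 kb of a TSS in WT (left) and Delta (right) for each mark, for the 10 endothelial genes (dark), the 39 other vascular genes (light) and all 22359 protein-coding genes (grey), with counts or percentages above the bars. H3K27ac is at 0 of 10 in both genotypes.

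**Figure D5:**
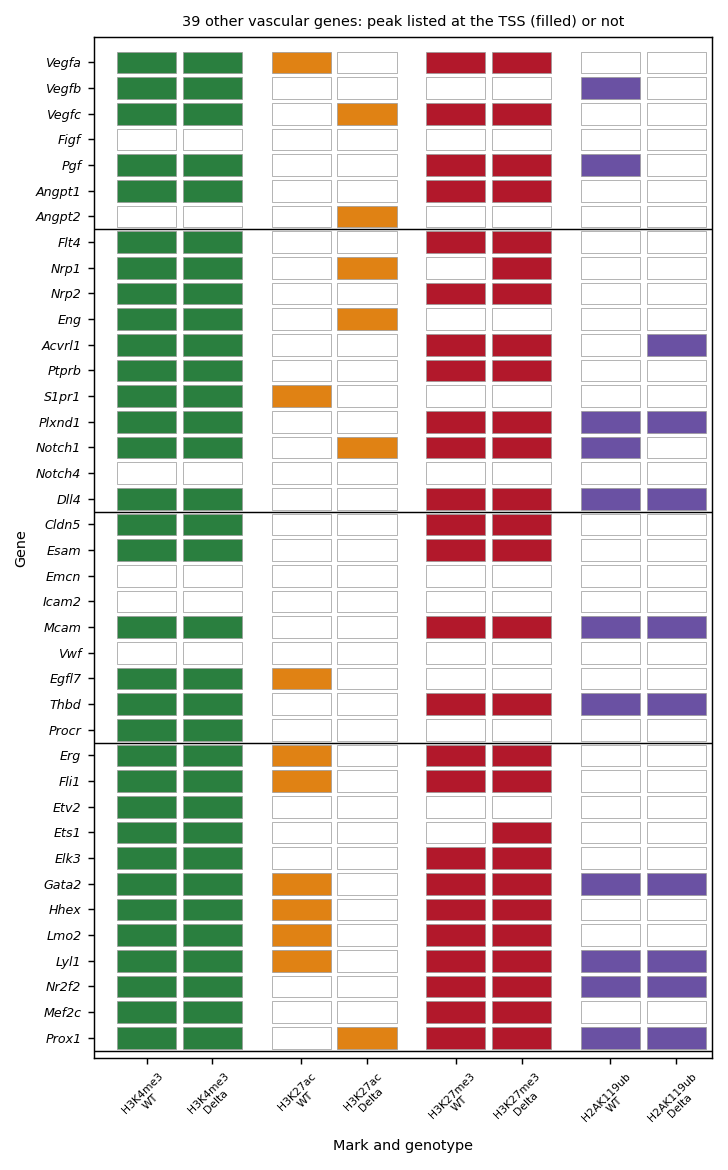
TSS calls at the 39 other vascular genes, with 1 row per gene (ligands, receptors, surface genes and transcription factors from top to bottom, separated by lines) and 1 column per mark and genotype. Filled cells are listed peaks, and no row has H3K27ac filled in both genotypes.

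Markers of other cell types were read in the same lists. Over all genes, H3K4me3 was at the TSS in both genotypes at 59.6%, H3K27me3 at 27.8%, H3K27ac at 16.4% and H2AK119ub at 4.14%. In the same order, 1.06%, 7.04%, 3.43% and 5.08% of all genes were called in WT alone. Those called in Delta alone were 0.684%, 4.91%, 6.37% and 0.863%. H3K4me3 was at 6 of 6 mesodermal genes in both genotypes. Of 6 blood genes it was at 4 in WT and 2 in Delta, with *Gata1* and *Gfi1b* in WT alone. H3K27ac was at 2 blood genes in WT alone, *Itga2b* and *Spi1*, and at 1 in Delta alone, *Runx1*, which also had H2AK119ub in Delta alone. H3K27me3 was at 3 blood genes in both genotypes. Among mesodermal genes, *Mixl1* had H3K27ac and H2AK119ub in Delta alone and H3K27me3 in WT alone, while *Pdgfra* and *T* had H2AK119ub in WT alone. Of 6 cardiac genes, 4 had H3K4me3, H3K27me3 and H2AK119ub calls in both genotypes, and 0 had H3K27ac. Pluripotency genes had H3K4me3 at 2 of 4 in WT and 3 of 4 in Delta, where *Pou5f1* had it in Delta alone and H2AK119ub in WT alone, and neural genes had it at 2 of 2 in both. For H3K4me3, 2 of 6 blood markers were called in WT alone, as *Tek* and *Cdh5* were, and 0 of 6 in Delta alone. For H3K27ac the blood markers went both ways, with 2 in WT alone and 1 in Delta alone. The part of cell composition in these differences was not tested.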

How the data were processed

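Histone ChIP-Rx peak lists from 4 marks and 2 genotypes at day 4 were used, and groups came from the sample titles. The labels also described 2 inputs, not analysed here. According to the study's methods and the submitters' processing notes, reads were aligned with Bowtie to mm9 and dm3, and the authors called broad peaks per library with MACS2 2.0.10 against the input. Spike-in scaling is not described for peak calls. The deposited lists give per peak a fold enrichment (a ratio made by the authors), −log10 p and −log10 q as deposited by the authors, and a score deposited by the authors that was not used. The largest q was 0.0500, so weaker regions were not listed, and the lists hold no read numbers. The read totals that the study gives per library were not used here.

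GENCODE M1 genes on mm9 were used, without the mitochondrial genome. Counterparts needed 1 bp of overlap, and percentiles are ranks within a list. The main TSS was the most upstream start of the largest group of protein-coding transcript starts within 500 bp. The members and the wider and marker lists were chosen with earlier results of these data known. Named genes were the 10 members, genes of the wider list whose H3K27ac or H2AK119ub call differed, and member peaks without a counterpart that lay at a TSS or were over 1000 bp. Other peaks and non-members were named after their values were seen. Of the markers, 1 neural gene was not matched. The sequence features of 1 promoter and of 1 H3K27ac peak are not reported here. Strain labels took 8 values over the libraries and were not used. The overlap code was tested on simulated data, where 200 of 200 placed peaks were called, and differed from bedtools 2.31.1 at 0 genes in 8 lists. Python 3.11.15, NumPy 2.4.6, SciPy 1.17.1, Matplotlib 3.10.9 and SAMtools 1.23.1 were used. Alternatives were TSS distances of 1000 bp and 5000 bp, a −log10 q or fold enrichment of at least 3, equal numbers of top peaks, all transcripts, 200 bp of overlap, length inside the limit, joining of peaks within 3000 bp, and, chosen after the data were seen, a distance of 5000 bp and gene-body peaks for lengths, and further settings for H3K27ac in the wider list.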

Additional observations from a re-analysis of the deposited data

How the results depend on the processing

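Of 144 values recomputed under alternatives, 124 stayed within a factor of 1.5 for counts or 5% for ratios, and 20 moved. Several of the unchanged counts were 0 under both settings. A change of direction could be recorded for the length ratios alone, and 0 of these changed. Counts could not be labelled in that way, and the balance of H2AK119ub calls in 1 genotype alone turned at 1000 bp. The cause of the moves was not tested unless given. With a TSS distance of 5000 bp, H3K27ac was at 1 of the 10 genes in WT and at 1 in WT alone, *Cdh5*, since its peak lies 4902 bp upstream. With 1000 bp, H2AK119ub was at 1 gene in Delta, at 1 in WT alone and at 0 in Delta alone. When a −log10 q of 3 was required, H2AK119ub was left at 0 TSSs in WT and 0 in Delta, at 0 and 0 when the gene body was included, at 0 in Delta alone, and at 1 in WT and 0 in Delta of the wider list, as few H2AK119ub peaks of either list reached it. At the same limit H3K27ac was at 0 genes of the wider list in Delta, and H3K27me3 was at 1 gene in Delta alone, *Sox7*. It was also at 1 in Delta alone, *Kdr*, when a fold enrichment of 3 was required. The *Tek* H3K4me3 call was lost at a −log10 q of 3 and the *Cdh5* call was kept.

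The median Delta over WT ratio of H3K4me3 length was 0.881 inside the limit, 0.748 at that −log10 q and 0.860 with gene-body peaks, an alternative chosen after seeing the data. For H3K27me3 it was 1.14 inside the limit and 1.34 at that −log10 q. No paired analysis was possible because each mark and genotype had a single library, and the replicate number 1 is only a name. Peak lists without read counts cannot show whether a region without a peak lacked the mark.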
